A study of Rattus norvegicus with 6 samples.

Results

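Messenger RNA levels for glucose transport, glycolysis and the citrate cycle were examined in the whole hippocampus of Syracuse High Avoidance (SHA) and Syracuse Low Avoidance (SLA) rats. These are a pair of rat lines that differ in how readily the animals learn active avoidance. In that task a rat avoids a signalled shock by moving to the other side of a box. The set was a fixed list of 43 genes. A probe set, the group of short oligonucleotides that reads a transcript on the array, was taken when the platform annotation gave it exactly 1 gene and that gene was on the list. This found 68 of the 8799 probe sets of the array, for 36 of the 43 genes and of the 4737 genes that have such a probe set. Pyruvate carboxylase (Pcx) was matched through its current symbol Pc. Hk3, Gpi, Eno2, Idh3a and Fh had no probe set assigned to them alone and were not analysed here. The probe sets annotated to Tpi1 and Ldha were each shared with similarly named genes, so neither enzyme was analysed here.

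Each line had 3 pools of total RNA, each pool from 3 rats, and each pool was hybridised to its own array. The rats of all 6 pools had been through avoidance testing, and their tissue was collected 2 weeks after it. No untested rats were included, so inborn line differences and responses to the testing cannot be told apart. The labels give neither age nor sex. The pool is the replicate (n = 3 per line), and a pool averages the differences among its rats. Values are linear intensities on the authors' scale, each difference is SHA minus SLA on the log2 scale with its standard error, and intensities below a floor of 8.9 were set to that floor before log2 was taken.

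Brain tissue runs largely on glucose. Glucose enters through facilitative transporters, Slc2a1 in the blood-brain barrier and glia and Slc2a3 in neurons, is trapped by hexokinase and is broken down by glycolysis to pyruvate. Pyruvate is exchanged with lactate, which cells pass to one another through monocarboxylate transporters such as Slc16a1, or enters mitochondria, where the pyruvate dehydrogenase complex turns it into acetyl-CoA for the citrate cycle. Most steps have several isozymes, encoded by separate genes and used by different tissues. The 43 genes were therefore divided into 30 whose forms are abundant in brain and 13 better known from liver, muscle, fat, intestine, leukocytes or testis. In bulk tissue, fewer cells of a type and less RNA per cell cannot be told apart.

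No member differed between the lines past the threshold, and the measured differences were small. Apart from array controls, 48 probe sets of 27 members were bright enough to be tested: 42 probe sets of 23 brain forms and 6 of 4 other-tissue forms. None had an adjusted p under 0.05 in limma, where 0 of all 6555 probe sets tested (0%) did. None had an unadjusted p under 0.05 either, against 98 of 6555 (1.5%; 0.366% higher and 1.13% lower in SHA), and the smallest was 0.091. The adjusted p of every member was 1.00. The 3 SHA pools lay wholly above the 3 SLA pools for 2 of the 48 probe sets, of Pgk1 and Pgam1, and wholly below for none. Over all probe sets tested, 5.66% did not overlap in one direction or the other (2.01% higher and 3.65% lower in SHA). The median absolute difference was 0.19 for the members and 0.24 for all probe sets tested.

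Of the 48 probe sets, 29 had a higher mean in SHA and 19 a lower one, and 48.1% of all probe sets tested had a higher mean. The median difference was 0.12, with -0.01 over all probe sets tested. After median centring of the arrays 34 of the 48 were higher, with 3573 of 6555 over all probe sets, and without SLA pool 1 the count was 21 of 48. With the brightest probe set of each gene alone, 13 of 27 genes were higher and the median was -0.01. The count thus depended on which probe sets stood for a gene. Of 18 genes with several tested probe sets, 10 had probe sets that all differed in the same direction and 8 did not.

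**Figure D1:**
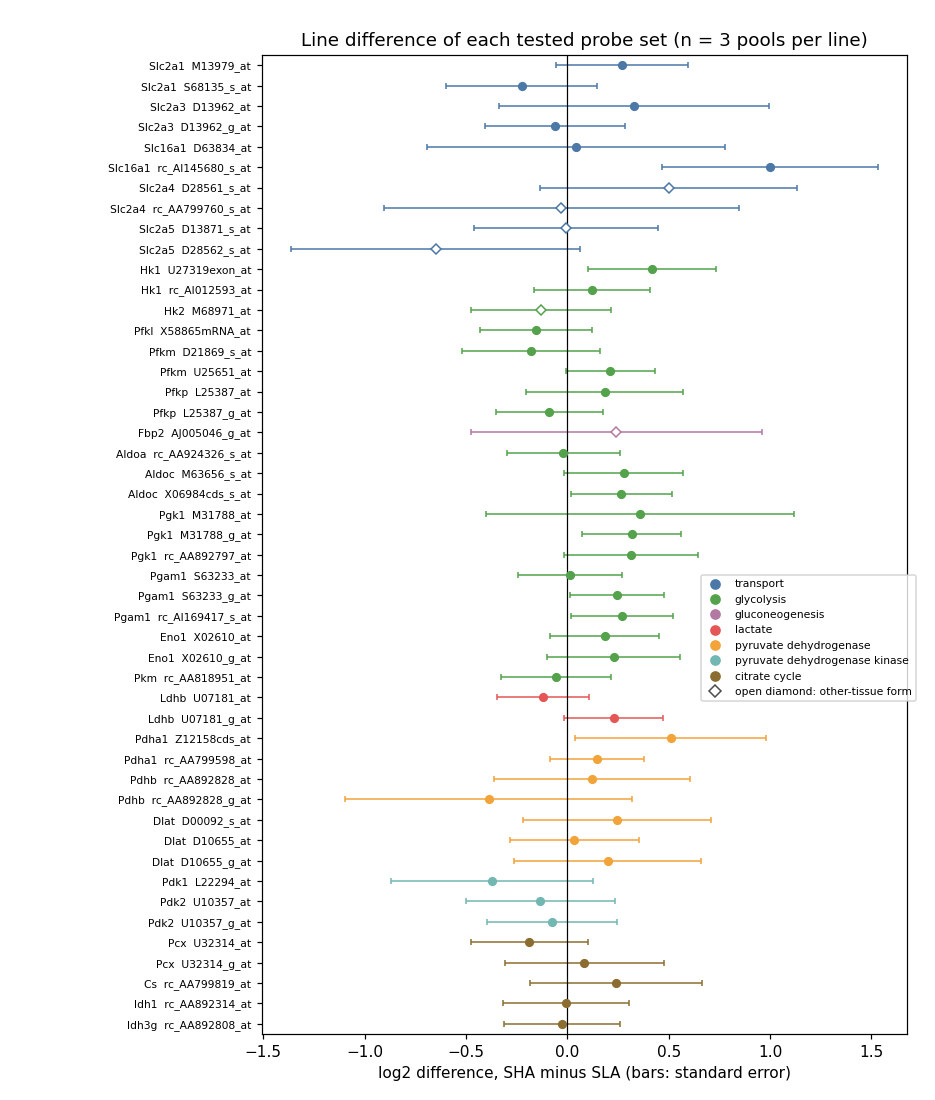
Difference in log2 intensity, SHA minus SLA, for the 48 tested probe sets of the members, listed in pathway order and coloured by step. Points are limma estimates, bars are standard errors (n = 3 pools per line), and open diamonds are other-tissue forms; most bars cross 0, and the point farthest from it is Slc16a1 at 1.00.

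The largest difference among the 48 member probe sets of the main test was in a transporter of lactate and pyruvate. Slc16a1 (MCT1), which carries monocarboxylates across the membranes of endothelium and glia, read 272.6, 276.9 and 214.2 in SHA pools 1, 2 and 3 on probe set rc_AI145680_s_at. The SLA pools read 52.6, 261.7 and 147.0. SLA pool 1 was by far the lowest, and SLA pool 2 lay within the range of the SHA pools, so the groups overlapped. The difference was 1.00 ± 0.53 (unadjusted p = 0.091, adjusted p = 1.00), with a 95% interval from -0.19 to 2.19. It was 2.37, 0.08 and 0.54 between pools sharing the numbers 1, 2 and 3, and 0.37 without SLA pool 1. With the pool number as a block the unadjusted p was 0.047 and the adjusted p 0.83. It was the only member with an unadjusted p under 0.05 in that fit, where 5.26% of all probe sets tested had one. The other probe set of this gene, D63834_at, differed by 0.04 ± 0.73. Endothelial markers (5 of 8 measured, all tested) summed to 356.1 to 578.7 in the SHA pools and 328.5 to 714.7 in the SLA pools, and their part in the Slc16a1 values was not tested.

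The glucose transporters of brain did not differ in a shared direction. Slc2a1 (GLUT1) read 487.4, 1048.8 and 502.4 in the SHA pools and 520, 1094.1 and 720.7 in the SLA pools on S68135_s_at. The pools numbered 2 were the highest in both lines, and the line difference was -0.22 ± 0.37. On its other probe set, M13979_at, Slc2a1 read 428.7, 409.8 and 307.3 against 435.2, 343.7 and 206.2. There the pools numbered 3 were the lowest in both lines, and the difference was 0.27 ± 0.33. Slc2a3 (GLUT3) read 181.2, 346.7 and 383.6 in SHA and 264, 380.5 and 271.6 in SLA on D13962_g_at, a difference of -0.06 ± 0.35. Its dimmer probe set differed by 0.33 ± 0.67. The 2 probe sets of each of these transporters therefore had opposite signs, and the ranges of the lines overlapped on all of them.

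Hexokinase 1, the main hexokinase of brain, has 5 probe sets on the array. The brightest, rc_AI012593_at, read 1582, 2583.2 and 1905 in SHA and 1338.2, 2168.3 and 2081.9 in SLA, a difference of 0.12 ± 0.29. U27319exon_at read 440.7, 373.6 and 535.6 against 223.4, 367.7 and 452, where SLA pool 1 was the lowest, and differed by 0.42 ± 0.31. The other 3 are array controls for the 3′ end, middle and 5′ end of the transcript. In a fit that kept the array controls, they differed by 0.18 ± 0.34, -0.02 ± 0.35 and 0.45 ± 0.32 in that order. Hexokinase 2, the insulin-responsive form of muscle and fat, read 213, 140.6 and 272.7 in SHA and 173.8, 232.5 and 264.3 in SLA on M68971_at (-0.13 ± 0.34).

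Phosphofructokinase commits the sugar to glycolysis and is assembled from 3 kinds of subunit, all known in brain. The muscle-type subunit Pfkm had the smallest standard error of the members in the main test. It read 1752.1, 1989.3 and 1786.6 in SHA and 1401.9, 1820.2 and 1569.5 in SLA on U25651_at. The difference was 0.21 ± 0.22, with a 95% interval from -0.28 to 0.71, so a 2-fold difference, which is 1 on the log2 scale, lies outside it. The other Pfkm probe set, D21869_s_at, differed by -0.18 ± 0.34. The platelet-type subunit Pfkp read 1179, 1824.3 and 1147 against 1231.8, 1743.9 and 1382.9 on L25387_g_at (-0.09 ± 0.26), with the pools numbered 2 highest in both lines. The liver-type subunit Pfkl read 426.7, 770.1 and 704.8 against 738.8, 712.6 and 604 (-0.15 ± 0.28), where SHA pool 1 stood below the other 5.

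The 2 probe sets whose lines did not overlap belong to neighbouring steps of lower glycolysis. Phosphoglycerate kinase 1 (Pgk1), which makes the first ATP of glycolysis, read 1595.1, 1510.2 and 1521.5 in SHA and 929.6, 1454.5 and 1400.5 in SLA on M31788_g_at. SLA pool 1 was the lowest, and SLA pools 2 and 3 lay just under the lowest SHA pool. The difference was 0.32 ± 0.24 (unadjusted p = 0.22), 0.78, 0.05 and 0.12 within the pool numbers and 0.11 without SLA pool 1. On rc_AA892797_at Pgk1 read 2394.8, 2760.5 and 2720.3 against 1292.9, 2223.4 and 3252.8, so SLA held both the lowest and the highest pool (0.31 ± 0.33). The third probe set, M31788_at, was dim, at 14.5 to 66.2 over the 6 pools.

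Phosphoglycerate mutase 1 (Pgam1), the brain form of the next enzyme, read 4404, 4163 and 4442.3 in SHA and 3510, 3508.5 and 3978.5 in SLA on S63233_g_at. All SHA pools were higher, and the difference was 0.24 ± 0.23 (unadjusted p = 0.31), with 0.33, 0.25 and 0.16 within the pool numbers. The mean over pools was 4336 ± 151 (SD) in SHA and 3666 ± 271 in SLA. Pgam1 overlapped on its remaining probe sets. S63233_at read 5420.6, 4781.4 and 5414.1 against 6191.6, 4662.6 and 4723.5 (0.01 ± 0.26), with the highest pool in SLA. rc_AI169417_s_at read 1504.8, 1158.3 and 1047.1 against 824.3, 1027.9 and 1234 (0.27 ± 0.25). Without overlap were 2 of 48 probe sets, both higher in SHA. Of all probe sets tested, 2.01% were without overlap and higher in SHA, and 5.66% were without overlap in either direction.

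The other abundant glycolytic enzymes overlapped between the lines. Aldolase C, the brain isozyme found mainly in astrocytes and Purkinje cells, read 9814.1, 6662.9 and 7655 in SHA and 6354.2, 5509.4 and 8002.7 in SLA on M63656_s_at (0.28 ± 0.29). On X06984cds_s_at it read 5180.8, 5426 and 4123.3 against 4086, 4447.6 and 3677.8 (0.26 ± 0.25). The line ranges overlapped on both. Within the pool numbers the differences were 0.63, 0.27 and -0.06 on the first and 0.34, 0.29 and 0.16 on the second, which was higher in SHA in each. Aldolase A, the form shared with muscle, read 3795, 2918.3 and 2432.9 against 3826.4, 3060.5 and 2402.3, with closely matching values for each pool number (-0.02 ± 0.28).

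Enolase 1, the ubiquitous form, read 5862.6, 4165.1 and 7410.2 in SHA and 3919.4, 4208.6 and 6810.1 in SLA on X02610_g_at (0.23 ± 0.33), and its other probe set differed by 0.18 ± 0.27. Pyruvate kinase Pkm, the muscle and brain gene, read 4458.7, 4003.3 and 5862.8 against 5596.9, 4109.5 and 5105.2 (-0.06 ± 0.27). For both enzymes the spread among the pools of a line was larger than the difference between the lines. Glycolytic brain forms as a whole had 14 of 19 tested probe sets higher, for 10 genes, against 48.1% of all probe sets tested. On the brightest probe set of each gene, Hk1, Pfkm, Aldoc, Pgk1, Pgam1 and Eno1 were higher in SHA. Pfkl, Pfkp, Aldoa and Pkm were lower there. The median difference over the 19 probe sets was 0.21. That median was 0.14 after quantile normalization, 0.27 after median centring and 0.12 without SLA pool 1. Neuron markers had a higher mean in SHA for 6 of 7 tested genes, with a median of 0.27, and summed to 6773 to 11003 in the SHA pools and 6064 to 10138 in the SLA pools. Their part in the glycolytic values was not tested.

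Gapdh, glyceraldehyde-3-phosphate dehydrogenase, was read only by array controls, so it was left out of the main fit. Its mid-transcript probe set read 8376.3, 6973.5 and 7809.6 in SHA and 8213, 6278.5 and 6354.8 in SLA. In the fit that kept the controls, the 3′, middle and 5′ probe sets differed by 0.21 ± 0.26, 0.16 ± 0.27 and 0.17 ± 0.28. The pools numbered 1 read above those numbered 2 in both lines on all 3. The array also has 3 Gapdh probe sets of the opposite strand, which do not read the messenger RNA. The geometric mean of these was 1561, 53.2 and 458 in the SHA pools and 1546.5, 30.6 and 257 in the SLA pools, so the pools numbered 1 were far above those numbered 2 whatever the line.

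**Figure D2:**
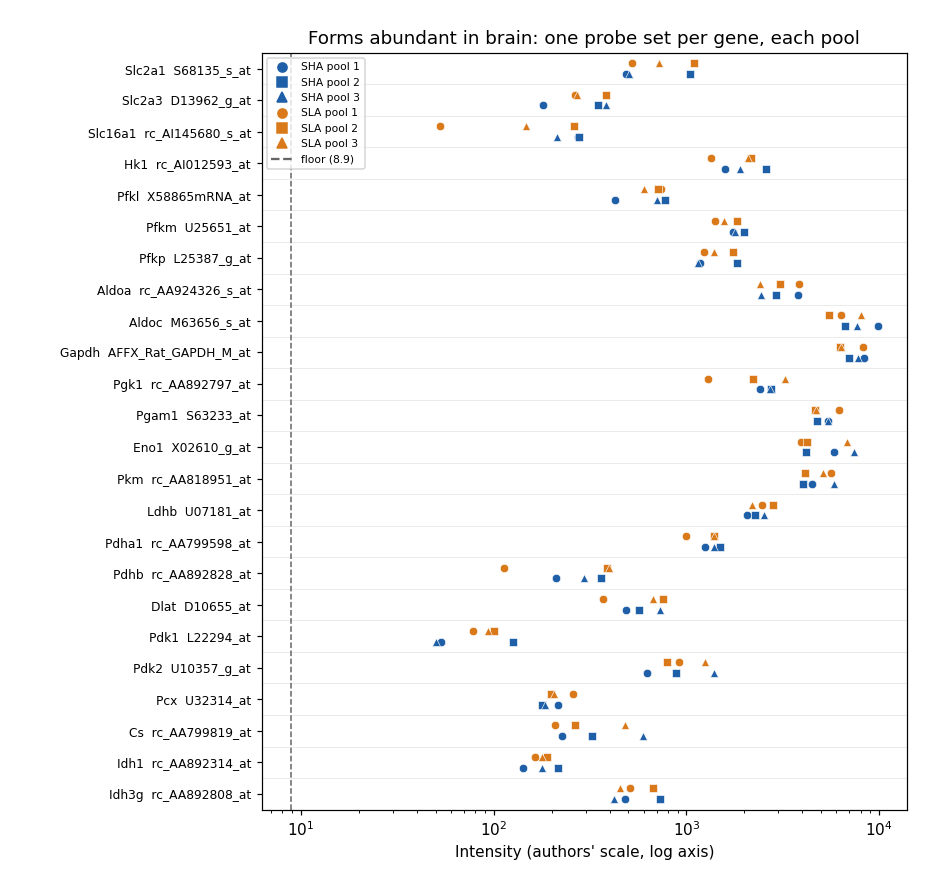
Intensity in each pool (log axis, authors' scale) for 24 brain forms, with the brightest tested probe set of each gene and, for Gapdh, the mid-transcript array control. Blue is SHA, orange is SLA, the shape gives the pool number and the dashed line is the floor of 8.9; the colours intermingle, and for Slc2a1, Pdhb and Dlat the circles of pools numbered 1 lie left of the squares of pools numbered 2.

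Lactate dehydrogenase B, the subunit that favours turning lactate into pyruvate, read 2059.1, 2259.5 and 2536.7 in SHA and 2461.4, 2798.6 and 2195.4 in SLA on U07181_at (-0.12 ± 0.23). Its other probe set, U07181_g_at, read 2626.3, 2215.3 and 2613.7 against 1740.4, 2050.2 and 2647.5 (0.23 ± 0.24). The signs differed, and the SHA and SLA ranges overlapped on both.

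The pyruvate dehydrogenase complex was read by 7 tested probe sets for 3 of its subunits. Pdha1, the E1 alpha subunit, read 1254, 1487.1 and 1391.1 in SHA and 991.7, 1388.1 and 1390.6 in SLA on rc_AA799598_at (0.15 ± 0.23). Its second probe set, Z12158cds_at, read 416.3, 486.8 and 449.7 against 134.9, 575.2 and 407.5 (0.51 ± 0.47), with SLA pool 1 at the bottom. Pdhb, the E1 beta subunit, read 211.3, 359.2 and 294.8 against 113.1, 387.2 and 395.1 on rc_AA892828_at (0.12 ± 0.48). Dlat, the E2 acetyltransferase, read 485.1, 569.3 and 728.3 against 367.6, 755.4 and 674.7 on D10655_at (0.03 ± 0.32). Of the 7 probe sets, 6 had a higher mean in SHA, and none did without SLA pool 1, when the median turned from 0.15 to -0.21. Without both pools numbered 1, 3 were higher and 4 lower, with a median of -0.05. It was 4 of 7 higher without SHA pool 2 (median 0.01) and 7 of 7 without SLA pool 2 (median 0.41). The direction of this group therefore depended on which pools were kept.

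Pyruvate dehydrogenase kinases switch the complex off by phosphorylation. Pdk2, the most widespread kinase, read 626.7, 882.6 and 1387.6 in SHA and 911.5, 791.5 and 1245.9 in SLA on U10357_g_at (-0.08 ± 0.32). Its other probe set differed by -0.13 ± 0.37. Pdk1, a target of the hypoxia pathway, read 53.3, 126.6 and 50 against 77.9, 100 and 93.8 on L22294_at (-0.37 ± 0.50). SHA held both the highest and the lowest values of Pdk1.

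Enzymes that feed or run the citrate cycle overlapped between the lines. Citrate synthase (Cs), which starts the cycle, read 225.6, 323.6 and 592.6 in SHA and 207.6, 264.6 and 479.6 in SLA (0.24 ± 0.42). Its 95% interval was wide, from -0.71 to 1.19. Each SHA pool was above the SLA pool of its number, but the spread over the numbers was far wider than those gaps. Pyruvate carboxylase (Pcx), an astrocyte enzyme that refills the cycle, differed by -0.19 ± 0.29 on U32314_at and by 0.08 ± 0.39 on U32314_g_at. Idh3g, a subunit of the NAD-dependent isocitrate dehydrogenase, read 478, 726.2 and 421.2 against 510.4, 669.6 and 452.3 (-0.03 ± 0.28). Cytosolic Idh1 read 142.1, 215 and 177.2 against 163.9, 188.7 and 177.2 on rc_AA892314_at (-0.01 ± 0.31), and its other probe set was too dim to be tested.

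Pools sharing a number were often closer than pools of a line, most plainly for the pyruvate dehydrogenase complex. Both pools numbered 1 lay below both pools numbered 2 for 7 of 7 probe sets of the complex, with a median gap of 1.22. Over all members tested this held for 21 of 48 probe sets, and over all probe sets tested for 31.1%, a comparison chosen after the values were seen. The reverse order held for 9 of 48 member probe sets and for 31.3% of all. The gap between pool 2 and pool 1 for Dlat on D10655_g_at was 1.26 in SHA and 1.54 in SLA. For Slc2a3 on D13962_at it was 1.31 and 1.74. Glycolytic brain forms had 4 of 19 probe sets with pools 1 below pools 2 and 5 of 19 with the reverse. Among the latter were Eno1 on X02610_at, with gaps of -0.67 and -0.32, Pkm, with -0.16 and -0.45, and Aldoa, with -0.38 and -0.32.

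Several measures of the arrays went along with the pool numbers. Neuron markers (7 of 10 listed genes measured) had both pools numbered 1 below both numbered 2 for 7 of 7 genes, with a median gap of 0.74. Over all probe sets tested that order held for 31.1% and the reverse for 31.3%. Oligodendrocyte markers had that order for 2 of 5 tested genes and the reverse for 3 of 5. Endothelial markers had it for 1 of 5 and the reverse for 3 of 5. Snap25, a neuronal release protein, read 1395.8 in SHA pool 1 and 911.7 in SLA pool 1, and 2735.5 and 2450.4 in the corresponding pools 2, on AB003991_g_at. The beta-globin probe set M94918mRNA_f_at read 2863.8 and 2291.9 in the pools numbered 1 and 1135.1 and 1606.8 in those numbered 2. Added bacterial and phage controls had geometric means of 5458 and 12282 in the pools numbered 1 and 1121 and 640 in those numbered 2. The part of these measures in the gaps described for the members was not tested.

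**Figure D3:**
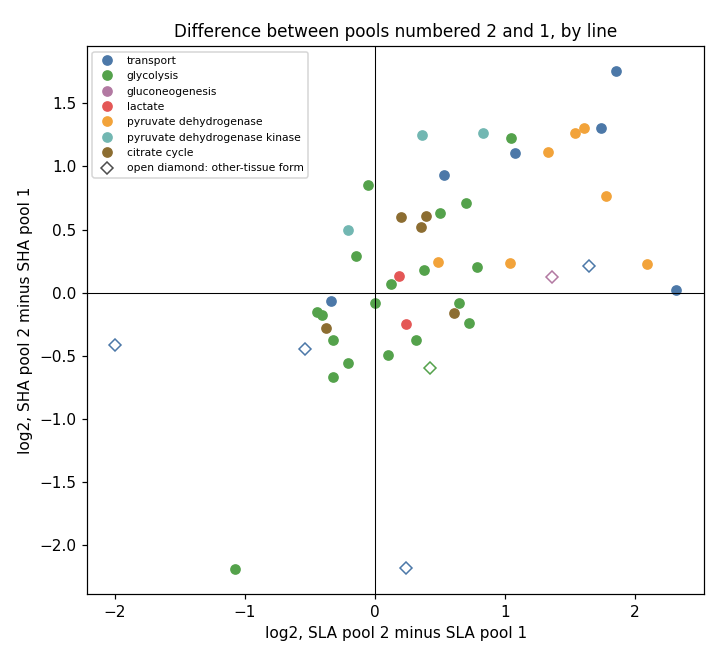
Log2 gap between pool 2 and pool 1 in SLA (horizontal axis) and in SHA (vertical axis) for the 48 tested member probe sets, coloured by step, with open diamonds for other-tissue forms. The 7 orange points of the pyruvate dehydrogenase complex lie in the upper right, where pool 2 exceeds pool 1 in both lines.

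The forms better known from other tissues lay near or under the floor in most cases. Of 13 listed, 12 had a probe set, 16 in all, and 10 of the 16 had at least 1 pool at or under the floor, against 1 of 49 probe sets that read messenger RNA of brain forms. The main test covered 4 of these 12 genes (Slc2a4, Slc2a5, Hk2 and Fbp2), because the dimmest 25% of probe sets were left out. The muscle enolase Eno3 read 2.8, 1.7 and 9.4 in SHA and 4.3, 3 and 4 in SLA, with 5 of 6 pools at or under the floor. The testis form of E1 alpha, Pdha2, was between 1.2 and 11.8, also with 5 pools at or under the floor. The testis lactate dehydrogenase Ldhc lay between 2.7 and 11.1, with 3 pools there. Muscle Pgam2 lay between 8.7 and 34.4, liver Fbp1 between 5.9 and 21.0, and Pdk4, a kinase of muscle and heart induced by fasting, between 4.3 and 18.5.

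A single pool stood out for some dim forms. Pklr, the pyruvate kinase of liver and red cells, read 12.2, 18.6 and 7.0 in SHA and 128.6, 18.0 and 16.8 in SLA. SLA pool 1 stood far above the other 5 pools. Slc2a2 (GLUT2), the transporter of liver and beta cells, read 32.2, 11.4 and 6.2 against 6.3, 1.6 and 4.2, with 4 pools at or under the floor. Neither gene passed the filter, and neither was tested in the main fit. In the limma fit with no filter on dim probe sets, Pklr differed by -1.42 ± 0.87 and Slc2a2 by 0.74 ± 0.48.

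The tested other-tissue forms overlapped between the lines. Slc2a4 (GLUT4), the insulin-responsive transporter of muscle and fat, read 61, 45.8 and 80.8 in SHA and 93, 23.3 and 36.8 in SLA on D28561_s_at (0.50 ± 0.63). Its other probe set differed by -0.03 ± 0.87. Slc2a5 (GLUT5), a fructose transporter of intestine that is also known from microglia, read 185, 135.4 and 159.6 against 268, 184.2 and 82 on D13871_s_at (-0.01 ± 0.45). On D28562_s_at it read 27.5, 31.8 and 25.7 against 34.9, 109.1 and 22.8 (-0.65 ± 0.71), where SLA pool 2 stood alone. Microglia and leukocyte markers were lower in SHA for 5 of 5 genes tested. The 7 measured genes had a summed intensity of 529.7 to 632.6 in the SHA pools and 789.2 to 1073.6 in the SLA pools. In limma 2 of the 5 had an unadjusted p under 0.05, against 1.5% of all probe sets tested (1.13% lower in SHA). The adjusted p was under 0.05 for 0 of them. The part of these markers in the Slc2a5 values was not tested. Fbp2, the muscle fructose bisphosphatase, differed by 0.24 ± 0.72 on AJ005046_g_at and was too dim on its other probe set.

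**Figure D4:**
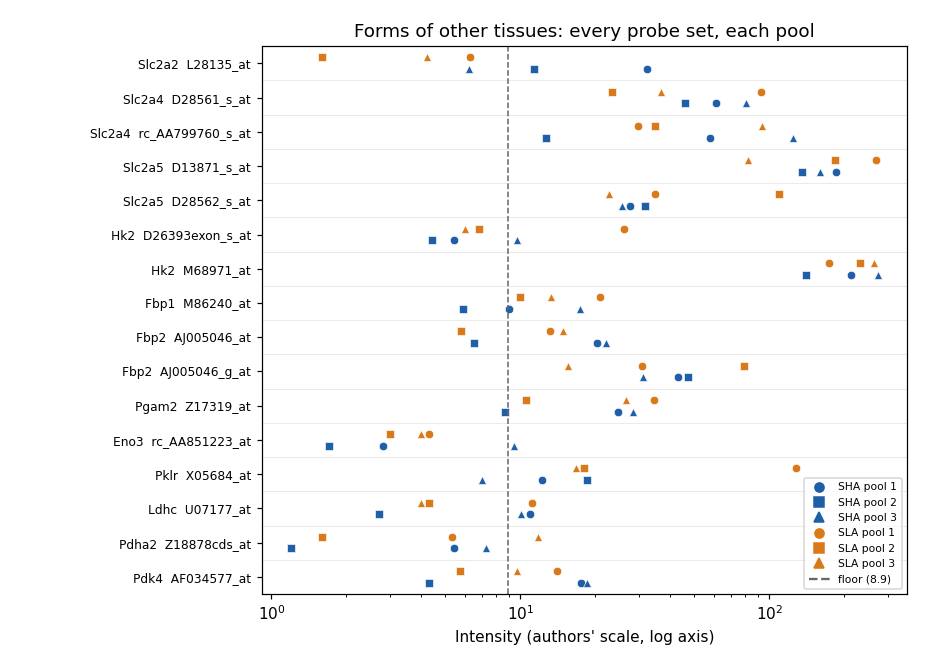
Intensity in each pool (log axis, authors' scale) for all 16 probe sets of the 12 other-tissue forms that have one. Blue is SHA, orange is SLA, the shape gives the pool number and the dashed line is the floor of 8.9; Eno3, Ldhc and Pdha2 straddle or lie left of the line, and SLA pool 1 stands alone for Pklr.

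Promoter sequences of the isozymes were set side by side. They are printed for 3 pairs of a brain form and an other-tissue form with pools at or under the floor, chosen after their values were seen. The window of Slc16a1, the member with the largest line difference in the main test, is printed too. Sequences are from RefSeq (build GRCr8), run 5′ to 3′ on the gene's strand from 250 bases before to 50 after a transcript start, and have each CG dinucleotide in capitals.
Pgam1, chr1:250672902-250673201 (+ strand): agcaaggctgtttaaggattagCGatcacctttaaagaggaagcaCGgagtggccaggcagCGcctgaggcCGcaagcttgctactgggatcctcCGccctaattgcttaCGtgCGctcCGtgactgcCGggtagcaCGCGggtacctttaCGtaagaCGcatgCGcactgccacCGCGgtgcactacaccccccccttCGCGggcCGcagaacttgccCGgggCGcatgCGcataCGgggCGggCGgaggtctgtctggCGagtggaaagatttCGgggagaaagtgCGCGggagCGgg
Pgam2, chr14:84897825-84898124 (- strand): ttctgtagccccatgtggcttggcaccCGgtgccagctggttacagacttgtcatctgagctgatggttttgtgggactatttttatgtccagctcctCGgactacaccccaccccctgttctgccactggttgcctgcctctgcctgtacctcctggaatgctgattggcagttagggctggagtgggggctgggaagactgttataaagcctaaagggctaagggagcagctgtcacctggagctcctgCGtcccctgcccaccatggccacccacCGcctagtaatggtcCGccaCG
Eno1, chr5:166003111-166003410 (+ strand): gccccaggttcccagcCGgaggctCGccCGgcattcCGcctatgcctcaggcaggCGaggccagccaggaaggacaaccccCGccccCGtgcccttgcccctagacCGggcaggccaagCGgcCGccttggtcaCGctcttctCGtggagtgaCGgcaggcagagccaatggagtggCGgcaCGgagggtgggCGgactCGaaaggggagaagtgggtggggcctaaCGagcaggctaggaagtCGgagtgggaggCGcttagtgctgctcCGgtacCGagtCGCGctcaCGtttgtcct
Eno3, chr10:55868936-55869235 (+ strand): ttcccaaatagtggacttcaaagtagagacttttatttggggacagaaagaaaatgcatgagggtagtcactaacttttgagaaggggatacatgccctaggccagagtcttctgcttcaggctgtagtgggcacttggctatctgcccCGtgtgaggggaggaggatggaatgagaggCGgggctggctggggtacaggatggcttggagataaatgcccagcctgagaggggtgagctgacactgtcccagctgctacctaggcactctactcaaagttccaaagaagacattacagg
Pdha1, chrX:38508908-38509207 (+ strand): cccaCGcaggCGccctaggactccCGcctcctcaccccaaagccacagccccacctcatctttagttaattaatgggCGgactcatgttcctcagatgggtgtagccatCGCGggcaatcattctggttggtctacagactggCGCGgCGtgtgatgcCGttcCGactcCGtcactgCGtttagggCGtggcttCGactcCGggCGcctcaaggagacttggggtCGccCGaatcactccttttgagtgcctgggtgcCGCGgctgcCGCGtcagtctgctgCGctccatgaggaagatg
Pdha2, chr2:232547049-232547348 (- strand): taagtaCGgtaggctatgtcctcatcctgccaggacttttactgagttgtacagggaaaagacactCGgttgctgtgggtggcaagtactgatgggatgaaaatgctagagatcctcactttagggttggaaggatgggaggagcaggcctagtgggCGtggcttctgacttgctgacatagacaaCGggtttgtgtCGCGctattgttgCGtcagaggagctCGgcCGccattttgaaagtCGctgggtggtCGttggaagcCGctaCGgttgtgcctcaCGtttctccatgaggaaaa
Slc16a1, chr2:194812410-194812709 (+ strand): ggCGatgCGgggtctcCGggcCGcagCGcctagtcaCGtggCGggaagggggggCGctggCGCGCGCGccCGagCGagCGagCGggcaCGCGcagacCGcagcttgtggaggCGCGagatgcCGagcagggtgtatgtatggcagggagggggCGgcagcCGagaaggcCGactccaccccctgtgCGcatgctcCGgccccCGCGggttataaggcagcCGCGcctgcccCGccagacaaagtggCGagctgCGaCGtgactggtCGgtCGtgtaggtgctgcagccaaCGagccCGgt

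The brain form had more CG dinucleotides in each of these pairs, at 30 against 6 for Pgam1 and Pgam2, 25 against 2 for Eno1 and Eno3 and 24 against 14 for Pdha1 and Pdha2. In pairs not printed it was 12 against 10 for Ldhb and Ldhc and 20 against 8 for Pkm and Pklr. Eno1 has 2 windows in the table, and the one shown has more CG dinucleotides. The Slc16a1 window held 39, the most of any member. A promoter window was found for 37 of the 43 genes, and Slc2a3, Slc2a4, Fbp2, Pgk1, Pcx and Idh3a had none in the table. The 30 windows of brain forms had a median of 23.5 CG dinucleotides, the 11 windows of other-tissue forms a median of 8 and the 33469 windows of the table a median of 7. At least 12 were present in 26 of 30, in 3 of 11 and in 37.1% of the windows in that order. The division was not complete, since Hk2 had 18 and Pdk4 16, while the single windows of brain forms Aldoc and Pfkm had 6 and 7. A window of Hk1 had 3 and one of Aldoa 4, where other windows of these genes had up to 19 and 24.

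The letters ACGTG, the core to which hypoxia-inducible factors and some other factors bind, were searched on both strands of each window. They were found in 18 of 30 windows of brain forms, in 2 of 11 of other-tissue forms and in 19.25% of all windows. The Slc16a1 window had 3 matches, and those of Pgam1 and Eno1 shown above had 1 each. In the Slc16a1 window the letters CACGTG, which read the same on both strands, were counted on each strand. The 3 matches are therefore not 3 separate places. Among the other windows shown, Pdha2 had 1 match, and Pdha1, Pgam2 and Eno3 had 0. The motif itself contains a CG dinucleotide, so its share moves with CG content. A match is a description of these letters and not a binding site. Hif1a, the hypoxia-inducible subunit, differed by -0.35 ± 0.46 between the lines.

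**Figure D5:**
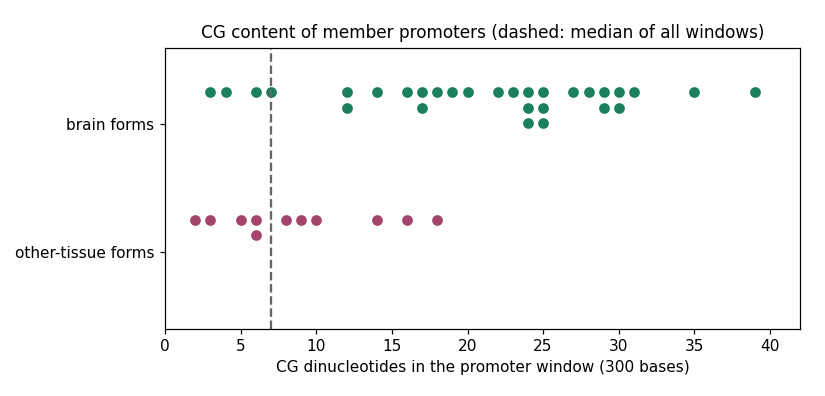
Number of CG dinucleotides in each 300-base promoter window of the members, 30 windows for brain forms and 11 for other-tissue forms, with points stacked where counts are equal. The dashed line is the median of 7 over all windows of the table; most windows of brain forms lie to the right of it, and those of other-tissue forms spread around it.

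Related genes of glucose metabolism showed no member past the threshold in either direction. Among other genes of the citrate cycle and the pyruvate dehydrogenase complex, 11 of 21 listed were measured and 10 tested, 7 higher and 3 lower in SHA, with a median of 0.12. Pdhx, the E3-binding subunit of the complex, differed by 1.08 ± 0.75 and cytosolic malate dehydrogenase Mdh1 by 0.43 ± 0.27. Both pools numbered 1 lay below both numbered 2 for 6 of these 10 and above them for 1. Over all probe sets tested the shares were 31.1% and 31.3%. Of the pentose phosphate enzymes 2 were tested, Taldo1 at -0.18 ± 0.29 and Tkt at -0.27 ± 0.24. Of 7 tested genes of glycogen metabolism 5 were lower, with a median of -0.16. Phosphoglucomutase Pgm1, which links glycogen to glycolysis, had all its SHA pools below all its SLA pools and differed by -0.35 ± 0.24 (unadjusted p = 0.18, adjusted p = 1.00). Its other probe sets had the opposite sign, at 0.29 ± 0.38 and 0.57 ± 0.60. Of all probe sets tested, 3.65% were without overlap and lower in SHA.

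Genes of glucose release, with liver or kidney forms, had 3 tested members, of which Gckr, the regulator of liver glucokinase, was farthest from 0 at -0.09 ± 0.47. Regulators and carriers had 14 tested members, 5 higher and 9 lower, with a median of -0.08. Pfkfb3, which makes the activator of phosphofructokinase, differed by -0.69 ± 0.51. A second Pfkfb3 probe set, too dim for the main test, read 17.7, 11.8 and 20.5 in SHA and 32.9, 31.2 and 44.2 in SLA, without overlap. In the limma fit with no filter on dim probe sets it differed by -1.14 ± 0.37 (unadjusted p = 0.022, adjusted p = 1.00). In that fit 203 of 8740 probe sets had an unadjusted p under 0.05. Of the probe sets in the main test, 3.65% were without overlap and lower in SHA, and 5.66% were without overlap in either direction. Other monocarboxylate transporters differed by -0.63 ± 0.51 (Slc16a3), -0.01 ± 0.39 (Slc16a7) and 0.67 ± 0.85 (Slc16a8). Basigin (Bsg), the chaperone that carries Slc16a1 to the membrane, differed by 0.21 ± 0.26. The mitochondrial pyruvate carrier subunit Mpc1 differed by 0.33 ± 0.33. None of these 36 related genes had an unadjusted p under 0.05 on its brightest tested probe set in the main fit. With the pool number as a block 2 did, Mdh1 at 0.020 and Phkg1, a catalytic subunit of phosphorylase kinase, at 0.035, each with an adjusted p of 0.83. In that fit 5.26% of all probe sets tested had an unadjusted p under 0.05, so 2 of 36 genes is near that share. Mdh1 differed by 0.73, 0.20 and 0.36 within the pool numbers, and Phkg1 by -1.01, -0.52 and -0.30.

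The arrays had 2%-trimmed mean intensities between 250.3 and 250.4, so they had been scaled alike. The share of values at or under the floor was 4.95% to 15.95%, depending on the array. Defining markers of the labelled tissue were present, with 7 of 7 measured neuron and 7 of 7 measured astrocyte genes bright enough to be tested. Genes listed for other tissues also passed the filter, with 11 of 12 measured for skeletal muscle, 5 of 8 for liver and 3 of 7 for testis. These lists were not exclusive to 1 tissue, since Ttr was listed for both liver and choroid plexus. The counts therefore do not show whether other tissue was present. No marker of any list had all 6 pools at or under the floor. The 3′ to 5′ gap of the Gapdh controls, a sign of RNA integrity, was 0.20 ± 0.13 (SD) in SHA and 0.17 ± 0.23 in SLA. The same gap of the Hk1 controls was 0.99 ± 0.41 in SHA and 1.26 ± 0.31 in SLA.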

How the data were processed

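The deposited values are linear intensities, 1 for each probe set on each array, which the authors had scaled, as the equal trimmed means show. The software is not given in the sources used here, nor is the scaling target. Nothing says what a pool number shares. Probe sets were named from the platform annotation through gene numbers of the GRCr8 gene table (6985 of 7006 with 1 symbol matched); 308 had several symbols and 1426 none. The 59 array controls were left out, values under the 10th percentile (8.9) were set to it, log2 was taken, and the dimmest 25% by mean log2 were dropped, leaving 6555. The test of SHA against SLA was that of limma 3.58.1 in R 4.3.3, two-sided and with an intensity trend, with p-values adjusted by Benjamini-Hochberg over all 6555 and a threshold of 0.05. The pipeline was tested on simulated data. A fit that kept the controls, for Gapdh and Hk1, was added after the data were seen. In leave-one-out fits the floor and filter stayed fixed.

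Members, isozyme groups and lists were chosen with earlier results of these data known. Every member with a probe set is named, with values per pool where pools do not overlap, where the unadjusted p is under 0.05, and for the brightest probe set of isozyme families; other probe sets and genes given were chosen after their values were seen. A gene is represented in lists by its brightest tested probe set. The number of arrays limits the precision, and p-values measure the spread between pools. After each line's mean was subtracted, SHA and SLA pools of the same number correlated at 0.44, 0.68 and 0.13 over probe sets. SHA pool 3 with SLA pool 1 reached 0.16, above the 0.13 of the pools numbered 3. The main fit did not pair the pools, so its standard errors, intervals and p-values are unpaired. Pool number entered as a block only in alternative fits, a choice made on the data alone.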

Additional observations from a re-analysis of the deposited data

How the results depend on the processing

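No member probe set passed an adjusted p of 0.05 under any of the alternatives run. Over all probe sets tested the count with an unadjusted p under 0.05 was 98, and it was 203 with no filter, 63 with the dimmest 50% left out, 345 when the replicate block was fitted, 354 under array weights, 871 under both together and 58 to 154 with 1 pool left out. The adjusted count was 12 with the replicate block and array weights and 0 otherwise. The members' count of 0 was 1 under array weights (Slc2a1, on M13979_at and not its brightest probe set). It was 1 when the replicate block was fitted (Slc16a1 on rc_AI145680_s_at) and 0 to 1 with 1 pool left out (Slc16a1 on the same probe set, without SLA pool 2). Under block and weights together it was 4: Hk2 on M68971_at, and Slc2a5, Pgam1 and Aldoc on D28562_s_at, S63233_g_at and X06984cds_s_at, which are not the brightest of their genes. The pairing of pool numbers as a block changed no other member call. The brain forms' median ranged from -0.063 to 0.15 with 1 pool left out. Of 490 values followed for 29 probe sets, 74 changed sign, all of differences that were not called, and the cause was not tested. The new log2 differences, SHA minus SLA on each gene's brightest probe set, follow. Quantile normalization gave Slc2a5 0.027, Pgam1 -0.076, Idh1 0.035. Median centring gave Slc2a5 0.049, Aldoa 0.034, Idh1 0.049, Idh3g 0.028. A floor at the 25th percentile gave Fbp2 -0.0007. Array weights gave Slc2a3 0.043, Slc2a5 0.69, Hk1 -0.056, Aldoa 0.21, Pgk1 -0.15, Eno1 -0.081, Ldhb 0.0034, Pdhb -0.38, Dlat -0.15, Cs -0.20, Idh3g 0.092. Leaving out both pools numbered 1 gave Slc2a3 0.18, Slc2a5 0.26, Pfkl 0.17, Pkm 0.081, Pdhb -0.27, Dlat -0.15, Pdk2 0.16, Idh1 0.094, Idh3g 0.0071. The replicate block with array weights gave Pfkl 0.028, Fbp2 -0.34, Pdhb -0.044, Dlat -0.24, Pdk1 0.044, Pdk2 0.078, Idh1 0.11, Idh3g 0.059. With 1 pool left out, the ranges of those that changed sign were Slc2a1 -0.59 to 0.054, Slc2a3 -0.26 to 0.28, Slc2a5 -0.49 to 0.37, Hk1 -0.10 to 0.28, Hk2 -0.35 to 0.13, Pfkl -0.32 to 0.11, Pfkp -0.31 to 0.05, Fbp2 -0.31 to 0.86, Aldoa -0.19 to 0.14, Pgk1 -0.038 to 0.63, Pgam1 -0.058 to 0.15, Pkm -0.21 to 0.062, Pdha1 -0.016 to 0.23, Pdhb -0.47 to 0.43, Dlat -0.29 to 0.23, Pdk2 -0.38 to 0.20, Cs -0.14 to 0.58, Idh1 -0.15 to 0.15, Idh3g -0.26 to 0.13. The number of arrays, 3 per line, limits the precision.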
